A study of Mus musculus with 6 samples.

Results

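The genes described here encode nuclear parts of the mitochondrial respiratory chain and of ATP synthase. They were chosen by name among protein-coding genes: every gene beginning with Nduf, Uqcr, Cox4, Cox5, Cox6, Cox7, Cox8 or Atp5, and Sdha, Sdhb, Sdhc and Sdhd. The rule gave 94 of the 54532 genes in the table. By name 38 belonged to complex I, 8 were Ndufaf genes for assembly of complex I, 4 belonged to complex II, 8 to complex III, 18 to complex IV and 18 to complex V. Ndufa4 and its relative Ndufa4l2 were kept under complex I by their names, although the Ndufa4 protein is now placed in complex IV. RNA was sequenced from tumour cells of Balb/c mice that carried 2208L, a transplantable mouse mammary tumour, with no treatment named for any sample. The CTC group was 3 libraries of circulating tumour cells grown out from the blood of 3 mice. For the PT group, primary tumours were dissociated and 3 libraries were made of the enriched tumour cells. Each PT library is labelled as matched with the CTC library of the same number. CTC replicate 1 and PT replicate 1 are therefore taken as 1 mouse, and likewise for 2 and 3. The comparison asked how the cells from blood and those left in the tumour differ. The labels give neither the age of the mice nor the time in culture nor the way tumour cells were enriched, and they describe propagation for CTC only, so growth in culture and origin cannot be told apart.

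The respiratory chain moves electrons from NADH (complex I) and succinate (complex II) through ubiquinone, complex III and cytochrome c to oxygen at complex IV. Complexes I, III and IV pump protons out of the mitochondrial matrix, and ATP synthase, counted as complex V, uses their return to make ATP. Most subunits are nuclear genes translated in the cytosol and imported, and they are built together with a few core subunits encoded by mitochondrial DNA, whereas complex II is wholly nuclear. Tumour cells often combine respiration with high glycolysis, and the balance shifts with oxygen, nutrients and growth conditions.

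Library totals were between 23845953 and 27897320 counts, and 3 counts, used as the floor of detection, corresponded to 0.1065 to 0.129 CPM (counts scaled by TMM-adjusted library size). The epithelial markers Krt8, Krt18, Krt19, Epcam and Cdh1 summed to 1971 to 4864 CPM in CTC and to 3596 to 4367 CPM in PT. Krt19 alone was at 0 counts in CTC replicate 3 and PT replicate 3. Of 7 leukocyte markers 3 (Ly6g, Adgre1 and C1qa) were at 0 in every library, and the 7 summed to at most 0.997 CPM. Endothelial, erythroid and muscle markers summed to at most 1.88, 0.667 and 6.34 CPM per library. Fibroblast markers, of which Lum was at 0, summed to 8.80 to 50.02 CPM in CTC and 14.9 to 68.7 CPM in PT. The sums were mostly Pdgfra and Dcn, with Col1a1 and Col1a2 at most at 1.78 and 0.843 CPM. Dcn ran from 0 counts in CTC replicate 1 and PT replicate 3 to 1147 in PT replicate 1. Adipocyte markers summed to 349.2 CPM in CTC replicate 3, nearly all from Fabp4 with Adipoq at 0 there, and to at most 2.45 CPM elsewhere.

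Of the 94 genes, 85 had enough counts to be tested. Levels of different genes were compared only per length, as TPM (counts scaled by gene length and library size), computed from the deposited gene length. The highest mean levels over the 6 libraries were those of Cox6a1 (1514 TPM, range 1166 to 2023), Cox8a (1505 TPM, range 1172 to 1669) and Cox4i1 (1118 TPM, range 823 to 1402), all complex IV subunits, whose ranges overlapped. Ndufa5, an accessory subunit of complex I, followed at 903 TPM, with the catalytic beta subunit of ATP synthase, Atp5b, at 899.7 TPM and the alpha subunit Atp5a1 at 727 TPM, and these neighbours in the order also overlapped. Among tested genes the lowest were Atp5s at 5.30 TPM, which RefSeq now names Dmac2l, and Ndufb2 at 7.74 TPM. All 8 Ndufaf assembly factors were below 100 TPM in every library. The order depends on the length used: with the median length of a gene's GENCODE transcripts, Atp5l moved from 56.0 to 422 TPM, Cox6c from 139 to 521 and Ndufb7 from 55.3 to 255, and Cox4i1 (1461 TPM) and Atp5b (1267 TPM) then stood above Cox6a1 (1186 TPM).

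**Figure D1:**
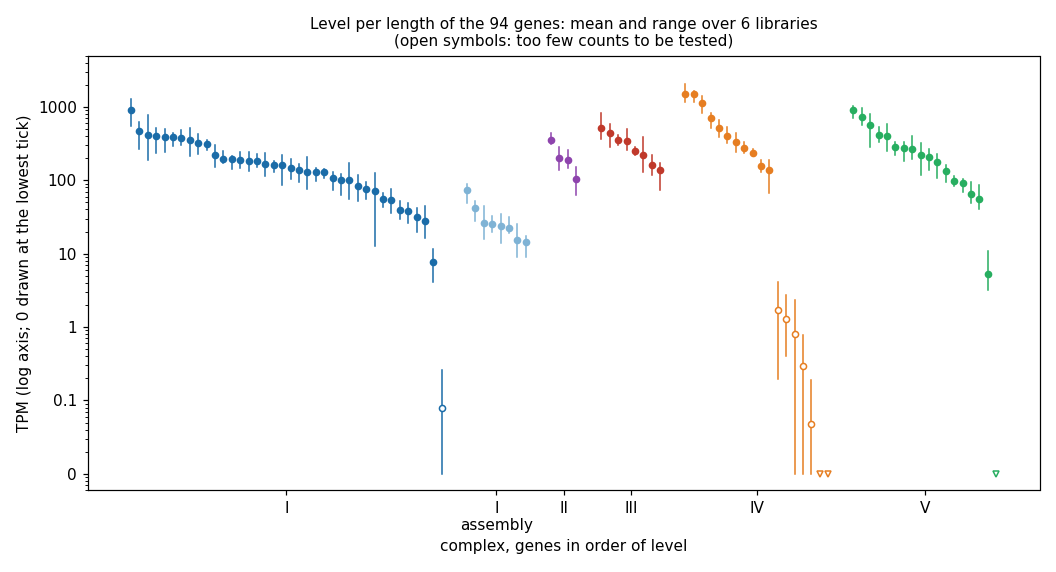
Level per length (TPM, log axis) of the 94 genes, ordered by level within each complex; points are means over 6 libraries and lines run from the lowest to the highest library, with 0 drawn at the lowest tick. The untested genes (open symbols) have means of at most 1.69 TPM (Cox7a1), below the lowest tested genes, Atp5s at 5.30 TPM and Ndufb2 at 7.74 TPM, but the highest library of Cox7a1 (4.08 TPM) is above the lowest libraries of both.

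The 9 genes that were not tested were isoforms used in particular tissues and 1 duplicate entry. Cox4i2, the lung isoform of Cox4, had 14, 8 and 7 counts for CTC and 23, 3 and 4 for PT, against 595 ± 205 CPM for CTC and 710.4 ± 226 CPM for PT for Cox4i1. Cox7a1, a heart and muscle isoform, had 8, 5 and 7 counts for CTC and 23, 1 and 8 for PT. Cox6a2, another muscle isoform, had 15, 2 and 0 counts for CTC and 0, 14 and 0 for PT. For each of these 3 genes the CTC and PT libraries overlapped. Cox7b2, a testis isoform, had 4, 2 and 2 counts for CTC and 1, 0 and 0 for PT, and Cox6b2, also a testis isoform, had at most 2 counts. Ndufa4l2, a gene known to be induced by hypoxia, had 0 counts in every CTC library and 3, 0 and 2 for PT, at or under the floor, while Ndufa4 was at 151 ± 61.9 CPM for CTC and 213 ± 73.2 CPM for PT. Cox8b and Cox8c, of muscle and testis, were at 0 counts in all 6 libraries, and so was a second entry named Atp5o (ENSMUSG00000116933). For each of them a count of 0 allows up to 3 counts, or 0.129 CPM in PT replicate 2, the library with the highest floor.

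No respiratory gene passed the test between CTC and PT, and most of them had lower values in CTC. At an adjusted p under 0.05 edgeR's quasi-likelihood test called 0 of 13874 genes (0%), and so 0 of these 85, whose smallest adjusted p was 0.726. Of the 85 genes 63 had a log2 fold change (CTC minus PT) below 0, and 45.9% of all genes tested did. The median log2 fold change of the 85 was -0.26, against 0.05 over all genes tested. At an unadjusted p under 0.05 the respiratory genes gave 2 lower, Uqcrc1 and Ndufa9 (3.31% of all genes), and 0 higher (3.32% of all genes). With limma-voom 0 of 13874 genes were called, and at an unadjusted p under 0.05 the respiratory genes gave 3 lower (3.7% of all genes) and 0 higher (2.93%), which for the lower side is close to the share over all genes. DESeq2 called 47 genes lower (0.283% of 16603) and 40 higher (0.241%), again with 0 respiratory genes. With the mouse as a block it called 134 lower (0.973% of 13774) and 119 higher (0.864%), also with 0 respiratory genes. Single genes are given below with their log2 fold change ± SE. In bulk RNA, fewer cells of a type and less RNA per cell cannot be told apart.

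**Figure D2:**
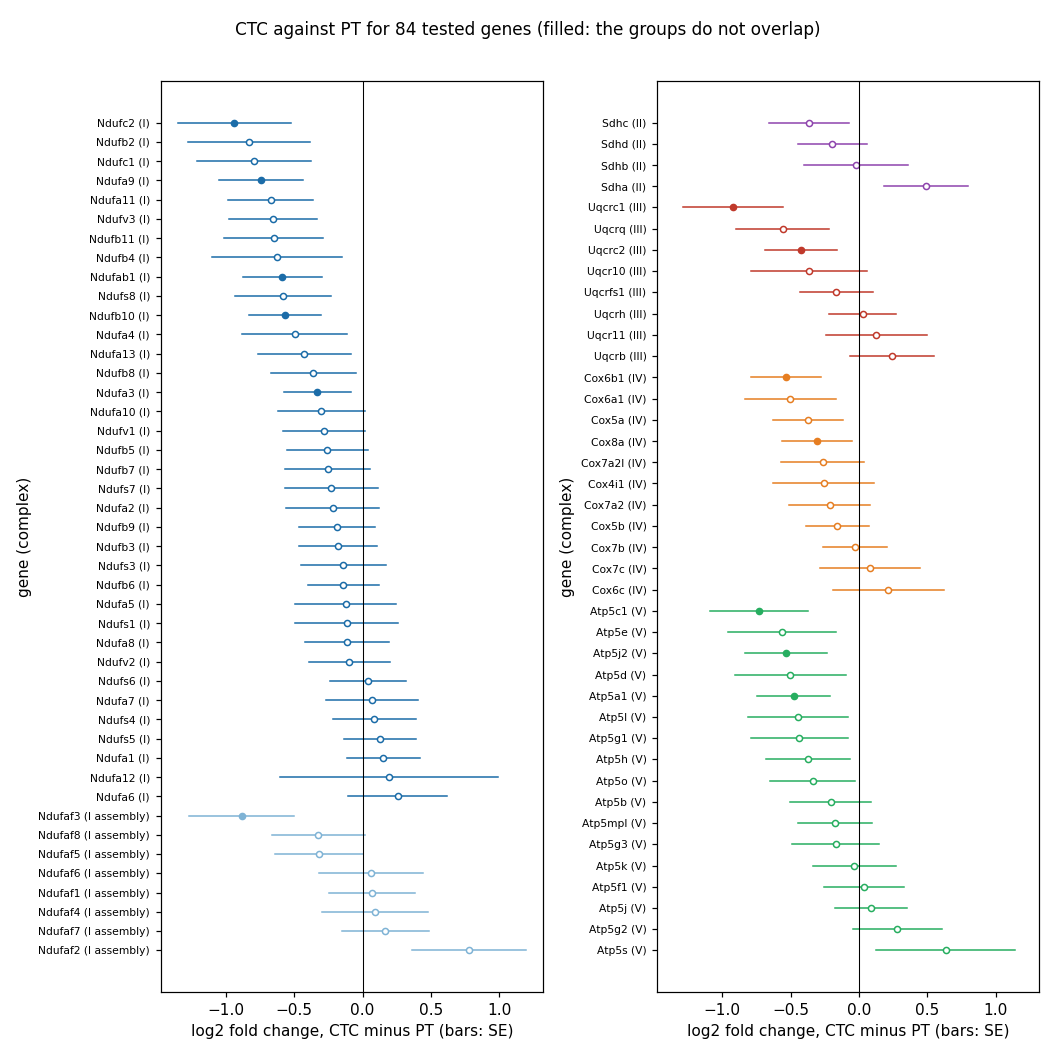
Log2 fold change (CTC minus PT) of 84 of the 85 tested genes by complex, with bars of 1 SE from edgeR's quasi-likelihood fit; filled points are genes whose 3 CTC libraries all lay below the 3 PT libraries. The points run from -0.94 for Ndufc2 to 0.78 for Ndufaf2, 62 lie left of 0, and the filled points are all on that side.

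For 14 of the 85 genes every CTC library lay below every PT library, which held for 6.16% of all genes tested, and for 0 genes every CTC library lay above (5.95% of all genes). The 14 were spread over complexes I, III, IV and V and the assembly factors. They included Ndufc2, Ndufa9, Ndufab1, Ndufb10, Ndufa3 and Ndufaf3 for complex I, Uqcrc1 and Uqcrc2 for complex III, Cox6b1 and Cox8a for complex IV, and Atp5c1, Atp5j2 and Atp5a1 for complex V. Without CTC replicate 1 the count was also 14, and the count over all genes was 7.54%. Leaving out CTC replicate 2 gave 30 (12.5% of all genes), and leaving out PT replicate 3 gave 32 (14.2%). Leaving out CTC replicate 3 gave 17, nearer to the share over all genes (14.4%). It was 16 without PT replicate 1 (9.9%) and 14 without PT replicate 2 (9.46%). On the higher side the count of 0 became 4 without CTC replicate 3 (15.8% of all genes), 3 without PT replicate 2 (10.8%) and at most 1 without any other library.

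The promoters of 3 genes are shown because they hold or lack the binding motif of NRF1, a transcription factor known to drive many respiratory genes; the 3 were chosen after their values and matches were seen. Sdha was higher in CTC at a log2 fold change of 0.49 ± 0.31 (SE), Ndufb4 was lower at -0.63 ± 0.47 and Ndufc2 had the lowest value of all at -0.94 ± 0.41. Each window is 200 bases of the RefSeq promoter table (GRCm38.p6), read 5′ to 3′ on the strand of the gene. Capitals mark matches of the NRF1 motif, GCGCA followed by any base and GCGC, on either strand, and matches that overlap are counted once each. The windows are chr13:74350241-74350440 (minus strand, Sdha), chr16:37654369-37654568 (minus strand, Ndufb4) and chr7:97399803-97400002 (plus strand, Ndufc2).
Sdha: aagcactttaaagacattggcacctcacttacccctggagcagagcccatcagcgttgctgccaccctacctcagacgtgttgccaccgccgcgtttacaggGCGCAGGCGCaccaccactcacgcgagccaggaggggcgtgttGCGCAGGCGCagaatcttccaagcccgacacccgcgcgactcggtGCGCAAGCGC
Ndufb4: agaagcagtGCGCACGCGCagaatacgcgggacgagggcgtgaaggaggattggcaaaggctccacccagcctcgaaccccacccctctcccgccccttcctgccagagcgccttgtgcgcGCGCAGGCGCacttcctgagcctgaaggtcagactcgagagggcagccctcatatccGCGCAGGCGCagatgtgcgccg
Ndufc2: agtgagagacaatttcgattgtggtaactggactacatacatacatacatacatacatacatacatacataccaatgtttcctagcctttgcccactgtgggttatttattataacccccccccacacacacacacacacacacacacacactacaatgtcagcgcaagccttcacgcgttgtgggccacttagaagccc
Sdha and Ndufb4 each held 3 matches and had fold changes of opposite sign, and Ndufc2 held none in its window. A promoter of 300 bases (250 before and 50 after the start) was found in that table for 72 of the 85 tested genes. Of these 72, 18 (25.0%) held the NRF1 motif, against 10.8% of 9537 other tested protein-coding genes. The YY1 motif AAGATGGCG, searched on both strands, was in 7 (9.72%, against 3.28%), and all 7 matches lay after the start. The motif of ERR receptors, TCAAGGTCA, was in 2 (2.78%, against 0.220%), namely Atp5g3 and Sdhd, and the ETS motif CCGGAAGT was in 5 (6.94%, against 8.83%). The median log2 fold change was -0.15 for the 18 genes with the NRF1 motif and -0.27 for the 54 without it. A match describes the letters in these windows and not the binding of a factor.

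Complex I oxidises NADH. All 7 of its nuclear core subunits, which carry the flavin, the iron-sulfur clusters and the ubiquinone site, had a log2 fold change below 0. Their median was -0.23, and 0 of 7 passed the test. The core subunits encoded by mitochondrial DNA are not among them and are described further below. The iron-sulfur subunit Ndufs8 was at 75.7, 146 and 130.3 CPM for CTC and 203, 207 and 117 CPM for PT, where CTC replicate 3 was above PT replicate 3 and the groups overlapped, at a log2 fold change of -0.58 ± 0.35. Ndufv1, which binds NADH and the flavin, was at 167 ± 38.5 CPM for CTC and 203 ± 50.9 CPM for PT (mean ± SD, n = 3 each), with a log2 fold change of -0.28 ± 0.30. Values nearer to 0 were found for other nuclear core subunits, with log2 fold changes of -0.23 for Ndufs7, -0.14 for Ndufs3, -0.11 for Ndufs1 and -0.10 for Ndufv2.

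The accessory subunits surround this core and are needed for its assembly and stability. Of 29 accessory subunits 22 had a log2 fold change below 0, with a median of -0.26. Ndufc2 (ENSMUSG00000030647, chromosome 7 from 97400003 to 97407802, GRCm38), of the membrane arm, was at 48.0, 101 and 97.3 CPM for CTC replicates 1, 2 and 3 and 124, 237 and 110.4 CPM for PT replicates 1, 2 and 3. CTC replicate 1 was lowest and PT replicate 2 highest, and CTC replicates 2 and 3 were only just below PT replicate 3, which left the groups apart. Its log2 fold change was -0.94 with an SE of 0.41 (95% interval -1.89 to 0.02, edgeR adjusted p = 0.726). Ndufa9 (ENSMUSG00000000399, chromosome 6 from 126821721 to 126849136), which sits beside the ubiquinone site, was at 61.2, 124 and 98.0 CPM for CTC replicates 1, 2 and 3 and 164, 145 and 166 CPM for PT replicates 1, 2 and 3. All CTC libraries were below all PT libraries, with a log2 fold change of -0.74 ± 0.31 (edgeR adjusted p = 0.726). Ndufab1, the mitochondrial acyl carrier protein, was at 64.4 ± 19.1 CPM for CTC and 96.6 ± 8.87 CPM for PT without overlap, at -0.59 ± 0.29, and Ndufb10 and Ndufa3 were without overlap at -0.56 ± 0.26 and -0.33 ± 0.25. For Ndufb2 and Ndufc1 the log2 fold changes were -0.83 and -0.79, with groups that overlapped. The 7 accessory subunits on the other side of 0 were Ndufa6, Ndufa12, Ndufa1, Ndufs5, Ndufs4, Ndufa7 and Ndufs6, between 0.04 and 0.26. Ndufa4 had 99.5, 133 and 219.6 CPM for CTC and 158, 296 and 184 CPM for PT, with overlap between the groups and a log2 fold change of -0.50 ± 0.38.

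Among the assembly factors of complex I there was no common side, with 3 of 8 below 0 and a median log2 fold change of 0.07. Ndufaf3, which acts on the ubiquinone module, was at 9.62, 11.7 and 16.0 CPM for CTC replicates 1, 2 and 3 and 32.5, 19.3 and 17.1 CPM for PT replicates 1, 2 and 3. PT replicate 1 stood out as the highest, and CTC replicate 3 was just under PT replicate 3. Its log2 fold change was -0.88 ± 0.38 (edgeR adjusted p = 0.726). Ndufaf2, a relative of Ndufa12 that takes its place during assembly, was at 25.5, 27.1 and 11.3 CPM for CTC and 14.2, 13.6 and 9.50 CPM for PT, where CTC replicate 3 was below all PT libraries but the lowest. Its log2 fold change of 0.78 ± 0.41 was the highest of the 85 genes (adjusted p = 0.726), and it was higher in CTC in all 3 mice, by 0.84, 0.99 and 0.25 on the log2 scale.

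Complex II, succinate dehydrogenase, also works in the tricarboxylic acid cycle. Its flavoprotein gene Sdha (ENSMUSG00000021577, chromosome 13 from 74322254 to 74350280) was at 207, 207 and 128 CPM for CTC replicates 1, 2 and 3 and 105, 114 and 166 CPM for PT replicates 1, 2 and 3. CTC replicates 1 and 2 were above every PT library, CTC replicate 3 was below PT replicate 3, and the groups overlapped. The log2 fold change was 0.49 ± 0.31 (95% interval -0.22 to 1.20, edgeR adjusted p = 0.738). The iron-sulfur subunit Sdhb was at 166 ± 69.9 CPM for CTC and 169 ± 48.7 CPM for PT, with a log2 fold change of -0.02 ± 0.38. The membrane anchors Sdhc and Sdhd were at -0.36 ± 0.29 and -0.20 ± 0.25. In mouse 2 all 4 genes of the complex were higher in CTC than in PT, and in mouse 3 all 4 were lower.

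Complex III passes electrons to cytochrome c. Uqcrc1 (ENSMUSG00000025651, chromosome 9 from 108936633 to 108949623), a core protein of the matrix side, was at 179, 307 and 225 CPM for CTC replicates 1, 2 and 3 and 654, 367 and 322 CPM for PT replicates 1, 2 and 3. All CTC libraries were below all PT libraries, but PT replicate 1 was far above the others and CTC replicate 2 was close to PT replicate 3. Its log2 fold change of -0.92 had an SE of 0.36 (edgeR adjusted p = 0.726). The other core protein, Uqcrc2, was at 100.2, 148 and 142 CPM for CTC and 153, 171 and 198 CPM for PT, also without overlap, with a log2 fold change of -0.42 ± 0.26. Uqcrfs1, the Rieske iron-sulfur protein, was at 169 ± 42.9 CPM for CTC and 189 ± 9.87 CPM for PT, with a log2 fold change of -0.17 ± 0.27. The 5 small subunits were divided, with Uqcrq (-0.56) and Uqcr10 (-0.37) below 0 and Uqcrh (0.03), Uqcr11 (0.13) and Uqcrb (0.24) above.

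Complex IV reduces oxygen, and its nuclear subunits surround a catalytic core made in mitochondria. Of 11 tested genes 9 had a log2 fold change below 0 (median -0.26), and Cox7c (0.08) and Cox6c (0.22) were above. Cox6b1, which faces the intermembrane space, was at 120.4, 168 and 176 CPM for CTC replicates 1, 2 and 3 and 229, 238 and 205 CPM for PT replicates 1, 2 and 3. The groups did not overlap, and CTC replicate 1 was the lowest library. Its log2 fold change was -0.53 with an SE of 0.26 (edgeR adjusted p = 0.726). Cox8a was at 213, 315 and 291 CPM for CTC and 357, 334 and 322 CPM for PT, also apart, although CTC replicate 2 was just under PT replicate 3, with a log2 fold change of -0.31 ± 0.26. The regulatory subunit Cox4i1 was at 505, 829.6 and 449 CPM for CTC and 807, 872 and 452 CPM for PT, and its groups overlapped (-0.26 ± 0.37). For Cox6a1 the log2 fold change was -0.50 ± 0.33, for Cox5a -0.37 ± 0.26, for Cox7a2l, which links complexes III and IV in supercomplexes, -0.27 ± 0.30, for Cox7a2 -0.21 ± 0.30 and for Cox5b -0.16 ± 0.23. Cox7b, at -0.03 ± 0.23, and Cox5b had the narrowest ranges over the 6 libraries of all 85 genes, 0.33 and 0.31 on the log2 CPM scale.

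ATP synthase has a catalytic head (F1) joined to a rotating ring and a stalk in the membrane. The 5 genes of the F1 head were all below 0, with a median log2 fold change of -0.50. Atp5c1 (ENSMUSG00000025781, chromosome 2 from 10056016 to 10080510), the gamma subunit that turns in the head, was at 179.9, 405 and 332 CPM for CTC replicates 1, 2 and 3 and 463, 638 and 421 CPM for PT replicates 1, 2 and 3. CTC replicate 2 was just under PT replicate 3, so the groups were apart by a small gap, and CTC replicate 1 was far below the other 5 libraries. The log2 fold change was -0.73 ± 0.36 (95% interval -1.56 to 0.10, edgeR adjusted p = 0.726). Atp5a1, the alpha subunit, was at 583, 819 and 725 CPM for CTC and 911, 975 and 1077 CPM for PT, without overlap, at -0.48 ± 0.26. The catalytic beta subunit Atp5b was at 1002, 1513 and 1443 CPM for CTC and 1544, 1766 and 1264 CPM for PT, with overlap, at -0.21 ± 0.29, and Atp5d and Atp5e, the delta and epsilon subunits, were at -0.50 ± 0.40 and -0.56 ± 0.39. Of the membrane part, Atp5j2 (subunit f) was at 212 ± 53.0 CPM for CTC and 307 ± 57.2 CPM for PT without overlap, at -0.53 ± 0.30.

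The c subunits of the ring come from 3 genes that encode the same mature protein behind different import signals. Per length Atp5g3 was highest at 411 TPM (range 329 to 536), Atp5g2 was at 267 TPM (range 198 to 397), overlapping it, and Atp5g1 was lowest at 65.2 TPM (range 48.5 to 94.5). Atp5g2 was at 149.9, 254 and 144 CPM for CTC and 134, 193 and 124 CPM for PT, and in each of the 3 mice it was higher in CTC, at a log2 fold change of 0.28 ± 0.33. Atp5g1 and Atp5g3 were at -0.44 ± 0.36 and -0.17 ± 0.32. None of the 3 passed the test, so no shift between the c genes was shown. The peripheral stalk was divided, with Atp5h (-0.37) and Atp5o (-0.34) below 0 and Atp5f1 (0.03) and Atp5j (0.09) above. Atp5s, which had 1 of the lowest levels, was at 7.38, 3.13 and 3.79 CPM for CTC and 3.41, 3.52 and 2.28 CPM for PT, highest in CTC replicate 1, at 0.63 ± 0.51.

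The lower values in CTC were most marked in mouse 1. The median difference of the 85 genes between the matched libraries (log2 CPM, CTC minus PT) was -0.62 in mouse 1, -0.16 in mouse 2 and -0.03 in mouse 3, against 0.08, -0.01 and -0.00 over all genes. In mouse 1 the CTC library was lower for 65 of the 85 genes (47.3% of all genes), in mouse 2 for 56 (50.4%) and in mouse 3 for 46 (50.2%). Of the 85 genes 24 were lower in CTC in all 3 mice, which held for 15.3% of all genes. Ndufa6, Ndufaf2 and Atp5g2 were higher in all 3, which held for 15.4%. A fit with the mouse as a block called 0 of 13874 genes, and its median over the 85 was -0.25.

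CTC replicate 1 held the lowest value of the 6 libraries for 48 of the 85 genes, and it held the lowest value for 22.9% of all genes. PT replicate 2 held the highest value for 30, against 12.6% of all genes. As deviations from each gene's mean over the 6 libraries, the median of the 85 genes was -0.41, 0.15 and -0.14 (log2 CPM) in CTC replicates 1, 2 and 3 and 0.16, 0.27 and -0.04 in PT replicates 1, 2 and 3. CTC replicate 2 was thus close to PT replicate 1 and above PT replicate 3, and the groups overlapped. The 94 genes took 0.985%, 1.44% and 1.27% of all counts in CTC and 1.45%, 1.65% and 1.29% in PT. Without CTC replicate 1 the median log2 fold change was -0.11 and 55 of 85 genes were below 0 (48.3% of all genes). Without CTC replicate 2 it was -0.41 and 74 were below 0 (47.0%). The libraries of mouse 3 were nearly level with each other. CTC replicate 3 was also the library with high Fabp4 counts, and any part of these in the values was not tested.

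**Figure D3:**
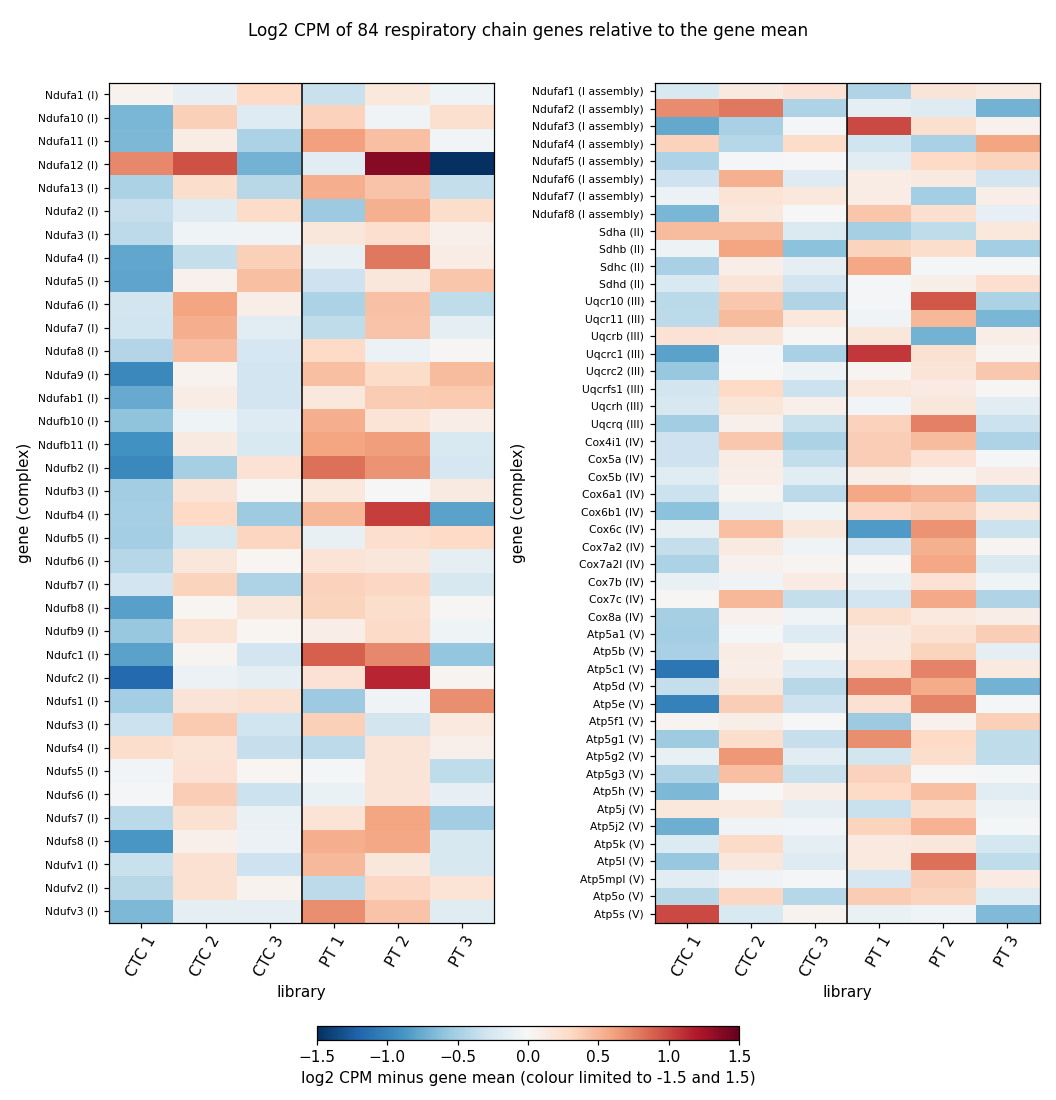
Log2 CPM of 84 of the 85 tested genes in each library, as the difference from the gene's mean over the 6 libraries (colour, limited to -1.5 and 1.5); rows are genes by complex and the line divides CTC from PT. Blue prevails in the column of CTC replicate 1, where 48 of all 85 genes have their lowest value, and Ndufa12 has the widest spread, 3.54.

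Pairs of genes from different complexes correlated nearly as much as pairs from the same complex. Over the 6 libraries the median correlation between pairs of the 85 genes was 0.45, with 0.48 for pairs of the same complex and 0.44 for pairs of different complexes, against -0.02 for pairs of one of the 85 with another tested gene. These values share libraries and their scaling, and n is 6, so they are descriptions only. The 6 values of 75 of the 85 genes correlated above 0 with the median of the other 84, and 47.1% of all other tested genes correlated above 0 with the median of the 85. The lowest such correlations among the 85 were -0.79 for Ndufaf4, -0.68 for Atp5s, -0.54 for Sdha and -0.52 for Uqcrb. Complex I ranged most, from a median deviation of -0.50 in CTC replicate 1 to 0.31 in PT replicate 2, and complex IV reached 0.48 in PT replicate 2. Complex II was highest in CTC replicate 2, at 0.34.

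**Figure D4:**
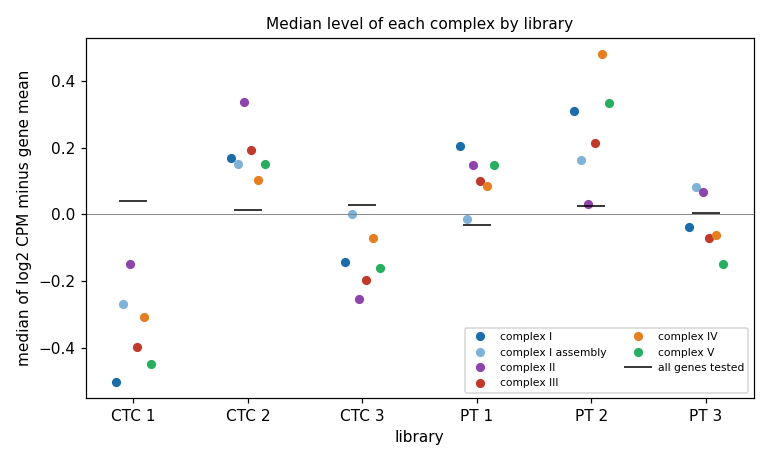
Median over the tested genes of each complex of log2 CPM minus the gene's mean, by library; short lines are the median of all genes tested. Every complex is below 0 in CTC replicate 1 and above 0 in CTC replicate 2 and, between 0.03 and 0.48, in PT replicate 2, while the medians of all genes stay between -0.03 and 0.04.

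Part of the spread of single genes was shared with the genes beside them on the chromosome. For each gene the 10 nearest tested genes on either side that are not respiratory genes were taken, a comparison added after the values were seen. Across the 85 genes and 6 libraries the deviation of a gene and the median deviation of its neighbours correlated at 0.45. Across the 85 genes the log2 fold changes correlated at 0.63. These correlations were not computed for other genes, so whether they are particular to the 85 was not tested. Of the 85 genes 74 were below the median log2 fold change of their neighbours, with a median difference of -0.34, and 50.3% of all genes were below theirs. The count was 60 without CTC replicate 1 and between 65 and 76 without any other library. On 18 of the 19 chromosomes that hold such genes, their median log2 fold change was below the median of the other genes there. The exception was chromosome 15, with Cox6c, Atp5g2, Ndufb9 and Ndufa6.

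How closely a gene and its surroundings varied differed from gene to gene. Over the libraries the correlation with the median of the neighbours was over 0.8 for 17 of the 85 genes. The lowest were -0.85 for Atp5k and -0.76 for Uqcrq. A few neighbourhoods serve as examples. Uqcrc1 and Ndufaf3 lie close together on chromosome 9, at 108936633 and 108565537 (GRCm38). Both had their highest value in PT replicate 1, 1.06 and 0.99 above the gene's mean, and the median of the neighbours there was 0.50 and 0.35 above; the 2 sets of neighbours overlap. Ndufa12 (ENSMUSG00000020022, chromosome 10 from 94198720 to 94221443), an accessory subunit of complex I, was at 52.7, 61.7 and 19.5 CPM for CTC replicates 1, 2 and 3 and 28.6, 81.8 and 6.97 CPM for PT replicates 1, 2 and 3. It ran over 3.54 on the log2 scale, the widest range of the 85 genes, and in both groups the library of mouse 2 was highest and that of mouse 3 lowest. The groups overlapped, at 0.19 ± 0.80 (edgeR adjusted p = 0.960), and with the mouse as a block the log2 fold change was 0.65 (edgeR adjusted p = 0.781). The deviations of Ndufa12 from its mean were 0.73, 0.95 and -0.71 in CTC replicates 1, 2 and 3 and -0.16, 1.36 and -2.18 in PT replicates 1, 2 and 3. For the median of its neighbours they were 0.73, 0.29 and -0.06 in CTC and -0.65, 0.28 and -0.48 in PT. The neighbours were thus level with Ndufa12 in CTC replicate 1 and low with it in PT replicate 3, but they were lowest in PT replicate 1, where Ndufa12 was near its mean.

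Chromosome 13 held 7 of the genes, 6 of which were higher in CTC, against 16 of 78 on the other chromosomes. They were Ndufaf2 (0.78), Sdha (0.49), Uqcrb (0.24), Ndufs4 (0.08), Cox7c (0.08) and Ndufs6 (0.04), and Uqcrfs1 was lower at -0.17. The other 528 tested genes of the chromosome had a median log2 fold change of 0.29, and 34.1% of them were lower in CTC. On chromosomes 10, 12 and X the medians of the other genes were 0.37, 0.28 and 0.22. There 3 of 5, 1 of 2 and 2 of 3 respiratory genes were lower in CTC. On chromosome 13 the median of the neighbours of Sdha was 0.50, next to its own 0.49, and that of Uqcrb was 0.22, next to 0.24. Ndufaf2 was above its neighbours (0.65). The neighbours of Cox7c, Ndufs4, Ndufs6 and Uqcrfs1 were at 0.61, 0.63, 0.56 and 0.22, above the genes themselves. Chromosome 13 was singled out after the values were seen. Its count of 6 higher genes was 5 without CTC replicate 1 and 3 without CTC replicate 2 or without PT replicate 1. It was between 4 and 6 without any other library.

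**Figure D5:**
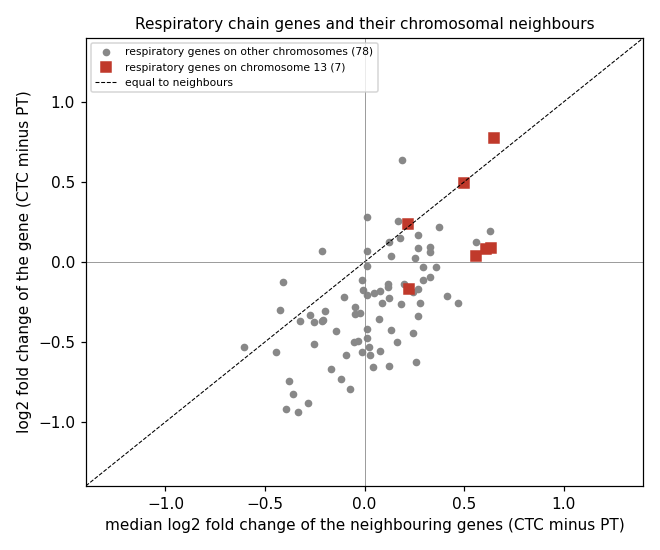
Log2 fold change (CTC minus PT) of each of the 85 genes against the median log2 fold change of its neighbouring tested genes, 10 on either side where the chromosome allows; red squares are the 7 genes on chromosome 13 and the dashed line marks equal values. Genes with higher neighbours tend to be higher themselves (correlation 0.63 over 85 genes), and 74 points lie below the dashed line.

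Among genes that work with these subunits, most of the mitochondrially encoded ones lay above 0 and most of the tricarboxylic acid cycle below. Of the 13 subunits encoded by mitochondrial DNA 4 had a log2 fold change below 0 (30.8%, against 45.9% of all genes tested). Their median was 0.06, close to the 0.05 over all genes tested. They took 1.73%, 1.13% and 2.47% of counts in CTC and 1.07%, 1.42% and 2.07% in PT. CTC replicate 1, in which the nuclear genes were lowest, was thus not low in the mitochondrial ones. Of 39 tested assembly factors outside the Ndufaf group 21 were below 0 (median -0.01). Without overlap 3 of them were lower in CTC (7.69%, close to the 6.16% of all genes tested). On the higher side it was 1 (5.95% of all genes). Bcs1l, which inserts the Rieske protein into complex III, was at 12.4, 30.4 and 23.5 CPM for CTC and 46.5, 34.0 and 39.1 CPM for PT, with no overlap and a log2 fold change of -0.85 ± 0.38 (edgeR adjusted p = 0.726). Sdhaf1, for iron-sulfur insertion into complex II, was at -1.11 ± 0.50, and Cox18, which helps insert a mitochondrial subunit of complex IV, was at 35.4, 25.3 and 32.3 CPM for CTC and 18.6, 22.1 and 25.1 CPM for PT, apart on the other side at 0.50 ± 0.29. Of 5 electron carriers 3 were below 0, all with overlap: Etfb (-0.55 ± 0.43), Cyc1 (-0.44 ± 0.45) and Cycs (-0.16 ± 0.28). Etfdh, which feeds electrons from fatty acid oxidation to ubiquinone, was the 1 carrier without overlap. It was higher in CTC at 0.33 ± 0.26. Of 14 enzymes of the tricarboxylic acid cycle 11 were below 0, with a median of -0.12. Idh3b, a subunit of isocitrate dehydrogenase, was the 1 enzyme lower without overlap (7.14%, close to the 6.16% of all genes), at -0.44 ± 0.24. The value farthest from 0 in that list was on the other side: Suclg2, a subunit of succinate-CoA ligase named after its values were seen, was at 47.7, 63.7 and 4.58 CPM for CTC and 0.460, 15.5 and 0 CPM for PT. It was higher in CTC in all 3 mice, but the groups overlapped, and its log2 fold change of 2.86 ± 1.73 did not pass the test (edgeR adjusted p = 0.733).

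Among 13 regulators of mitochondrial biogenesis 7 were below 0 and 0 passed the adjusted test. Without overlap 1 was lower (7.69%, close to the 6.16% of all genes tested) and 1 higher (5.95% of all genes). Esrra, a nuclear receptor that acts on respiratory genes, was at 68.7, 96.6 and 90.2 CPM for CTC replicates 1, 2 and 3 and 118, 168 and 126 CPM for PT replicates 1, 2 and 3. All CTC libraries were below all PT libraries, at a log2 fold change of -0.69 ± 0.27 (edgeR adjusted p = 0.726). Its coactivator Ppargc1a, named after its values were seen, was at 2.17, 2.58 and 8.21 CPM for CTC and 6.10, 21.9 and 12.4 CPM for PT, low in both groups and overlapping between them, with a log2 fold change of -1.64 ± 0.68 (edgeR adjusted p = 0.726). Yy1 was apart on the other side, at 0.30 ± 0.24. The rest of the regulators above 0 overlapped between the groups. They were Gabpa (0.39 ± 0.32), Tfb2m (0.30 ± 0.47), Twnk (0.26 ± 0.30), Tfam (0.14 ± 0.35) and Pprc1 (0.08 ± 0.38). Nrf1, whose motif is marked in the promoters above, was at 59.9 ± 11.2 CPM for CTC and 71.7 ± 6.02 CPM for PT with a log2 fold change of -0.26 ± 0.25.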

How the data were processed

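Libraries were made from 100 ng of total RNA with an mRNA kit, per the labels' protocols. Raw counts of reads for each Ensembl gene, with its length, were deposited by the authors in 1 table; HISAT2 and the builds GRCm38 and mm10 are named in the submitters' processing notes. The aligner's version, the read counter, the annotation release and strand handling are not stated in the labels or file, so antisense or overlapping genes cannot be told apart. Another 13 entries carry names of these families without being protein-coding, mostly pseudogenes; the highest, Ndufb1-ps, Ndufab1-ps and Ndufb4c, reached 318, 254 and 123 counts, and reads of such copies may be split. Gene positions matched GENCODE M21 in start and end for 88 of the 94 genes.

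The test was edgeR's quasi-likelihood test (version 4.0.16, R 4.3.3) of 3 CTC against 3 PT libraries with TMM scaling and the filterByExpr filter, Benjamini-Hochberg adjustment over the 13874 genes tested and a threshold of 0.05. SE and 95% intervals derive from the F statistic. CPM values are TMM-scaled, a prior count of 2 entered log2 CPM, and TPM was computed here from the deposited lengths. No 2 libraries agreed within sampling noise (chi-square per degree of freedom at least 90.4). Floors cover counting error only, since reads are not independent molecules.

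Labels match each PT library with the CTC library of the same number, read here as 1 mouse, so numbers pair the samples. Over all genes, after subtraction of group means, the libraries of mouse 1, 2 and 3 correlated at -0.015, 0.157 and 0.298. Libraries of different mice correlated between -0.265 and 0.173. CTC replicate 1 was closest to PT replicate 2 (0.173), and CTC replicate 2 correlated with PT replicate 1 at 0.149. The alternatives tried were the mouse as a replicate block, a correction for gene length (lowess, span 0.4) alone and with that block, scaling by RLE or upper quartiles, DESeq2 (version 1.42.0) with and without the block, limma-voom (limma version 3.58.1), 2 other filters, protein-coding genes only, and leaving out each library or pair. DESeq2 was run with all rows and with the edgeR-filtered rows, each with independent filtering set for 0.05 or for its default of 0.1. Of these 4 combinations the one shown (all rows, 0.05) was settled after the counts were seen. At an adjusted p under 0.05 they called between 62 and 89 genes without the block and between 241 and 253 with it, and 0 respiratory genes in each. TPM by transcript length, counts without each library, the neighbour and chromosome comparisons and the motif search were added after seeing the data. Genes, lists and marker sets were chosen with earlier results of these data known. The text names core subunits, isoform families, the 3 largest non-overlapping changes per complex in each direction, any gene called by a tool, and the 3 widest ranges; other members are named for completeness. A result for a single gene is not reported here, and the gene is counted in the totals.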

Additional observations from a re-analysis of the deposited data

How the results depend on the processing

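The median log2 fold change of the 85 respiratory genes was below 0 under all 20 alternatives, between -0.41 and -0.10, and 0 of them were called under any. The gene length correction gave -0.18 (these genes have a median length of 1718 bases, all tested genes 3982.5). Leaving out 1 library gave -0.41 to -0.11 and leaving out a matched pair -0.34 to -0.10. Over all genes the edgeR count of 0 was also 0 with the replicate block, the length correction, other scalings and each library or pair left out. It became 87 in DESeq2, 253 in DESeq2 with the replicate block and 199 when low counts were not filtered; the cause was not tested. The replicate block gave a median of -0.25 and changed no call.

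Of 720 values for 36 named genes 29 changed sign, in 13 genes with a main log2 fold change between -0.44 and 0.28. With the length correction Sdhb was 0.043 and Cox7b 0.065, and with the replicate block added Sdhb was 0.0014 and Cox7b 0.062. With single libraries left out, the values ran from -0.41 to 0.22 for Sdhb, -0.11 to 0.060 for Cox7b, -0.36 to 0.29 for Ndufs1, -0.28 to 0.067 for Ndufv2, -0.31 to 1.30 for Ndufa12, -0.041 to 0.49 for Atp5g2, -0.43 to 0.011 for Ndufs3, -0.48 to 0.032 for Ndufs7 and -0.38 to 0.020 for Cox7a2. Without the pair of mouse 1 the values were -0.10 for Ndufa12, 0.15 for Ndufs3, 0.026 for Ndufv1, 0.20 for Sdhb, 0.026 for Sdhc, 0.016 for Atp5g1 and 0.14 for Atp5g3. Without the pair of mouse 2 Cox7b was 0.081, and without that of mouse 3 Ndufs1 was 0.16. The 9 untested genes had at most 23 counts per library; those with any counts entered the unfiltered edgeR fit, and 0 of them were called there.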
